A study of Mus musculus with 30 samples.

Results

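Endothelial lipase and the machinery of intracellular lipolysis were followed across 5 recipient groups in whole bone marrow (BM) and in adipose tissue macrophages (ATMs). The set held 6 genes, taken by symbol from the count table of each tissue: Lipg, Pnpla2, Abhd5, G0s2, Lipe and Mgll. All 6 were present in both tables, among 13353 genes in BM and 17059 in ATMs. The members were selected on measured values of these libraries: Lipg was put forward because of its count in BM of vehicle-treated obese recipients compared with WT recipients, and the other 5 genes were added for their place in the same biology. For that reason the BM values of Vehicle against WT are given as a description, without a p value, and no p value is given for any BM contrast that reuses the Vehicle or WT libraries.

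CD45.2+ marrow from Shp2E76K/+;LysM-Cre+ mice, in which Cre is driven from the myeloid lysozyme locus, was mixed in equal numbers with CD45.1+ Boy/J competitor marrow. The mixture went into recipients irradiated with 700 and 400 cGy, either lean WT mice or leptin-deficient Ob/Ob mice, all 12 to 14 weeks old, of both sexes and on a C57BL/6 background. From 8 weeks after transplantation the Ob/Ob recipients received one of 4 treatments for 30 days: vehicle (Vehicle), the GLP-1R agonist beinaglutide at 3 mg/kg, an anti-IL-17A antibody at 200 µg per mouse given 3 times weekly, or both agents (Combo). The WT group carries no treatment label. Each group had 3 mice and thus 3 libraries per tissue, 30 libraries in all, and the protocol implies that mutant and competitor cells were sequenced together. The labels do not name the donor of each library, and the methods leave the ATM donors unclear, so the donor of the WT ATM libraries is uncertain. ATMs were F4/80+ cells sorted from visceral fat.

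Library totals ran from 31086184 to 39925495 counts in BM and from 24876074 to 45300263 in ATMs. Variation between replicates beyond counting noise, as a coefficient of variation, came to 3.51% for BM and 32.5% for ATMs. Between replicate pairs, the median chi-square per gene against counting noise was 0.854 to 2.54 in BM and 4.74 to 10.6 in ATMs. BM replicates thus lay closer to counting noise. Whether the small BM spread covers the variation between mice was not tested. In BM, 76.6% of all genes passed a false discovery rate of 0.05 between Vehicle and WT. For that reason a gene was called only at an adjusted p under 0.05 together with an absolute log2 fold change over 1. The labelled cell type was checked against markers. Adgre1, which encodes F4/80, averaged 42.3 CPM (the count scaled by library size) in Vehicle ATMs and 208 in WT ATMs, against 390 to 875 in the treated ATMs, and Csf1r averaged 47.6 CPM in Vehicle ATMs against 547 in WT ATMs. The 12 macrophage markers together made up 2650 to 2830 CPM in Vehicle ATMs, 4690 to 4930 in WT ATMs and 11000 to 16400 in the treated ATMs. Single macrophage markers split: 2 were called higher in Vehicle than in WT ATMs, led by Fcgr1 (log2 fold change 3.72), and 6 lower. Of all ATM genes, 12.5% were called higher and 22.9% lower there. Markers of other cells also differed between the ATM groups. Neutrophil markers were at 21900 to 23200 CPM in Vehicle and 12900 to 13200 in Combo but at 247 to 477 in the other ATM groups. Epididymal markers were at 10000 to 10200 CPM in WT ATMs against at most 161 elsewhere, and pancreatic acinar markers were at 1170 to 1190 CPM in Combo ATMs against at most 27.6 elsewhere. T cell markers were at 1150 to 1180 CPM in Combo ATMs and 146 to 160 in Vehicle ATMs, and B cell markers were at 344 to 415 CPM in WT ATMs and 110 to 123 in Vehicle ATMs. In BM, B cell markers were at 1500 to 1520 CPM in WT and at most 471 elsewhere, T cell markers at 42.5 to 116, macrophage markers at 3640 to 13500 and adipocyte markers at 25.5 to 70.5 over all libraries. No pair of libraries held identical values, and each was counted as the separate mouse that its label names.

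Lipg encodes endothelial lipase, a secreted enzyme that cleaves the phospholipids of lipoproteins, mainly HDL, at the vessel wall. The remaining members act inside the cell, on the triglyceride of lipid droplets. Pnpla2 encodes adipose triglyceride lipase, which removes the first fatty acid, with Abhd5 as its co-activator and G0s2 as its inhibitor. Lipe, hormone-sensitive lipase, takes the resulting diglyceride, and Mgll, monoglyceride lipase, releases the last fatty acid. These enzymes are best known from adipocytes, but macrophages and granulocytes also store and break down droplet lipid.

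In BM, Lipg was the member with the widest spread between groups. Scaled to a common library size, its normalized counts in the WT libraries were 69.3, 49.6 and 80.7, and in the Vehicle libraries they were 11165, 11198 and 10992. The GLP-1R agonist libraries held 158, 171 and 165, the anti-IL-17A libraries 332, 378 and 367, and the Combo libraries 6988, 7321 and 7046. No groups overlapped, and the order from low to high was WT, GLP-1R agonist, anti-IL-17A, Combo and Vehicle. In a given pair of BM groups, 61% to 76% of all genes did not overlap. Vehicle and Combo marrow thus sat far above the other 3 groups, and Lipg with each single agent was nearer to the WT level than to the Vehicle level.

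**Figure D1:**
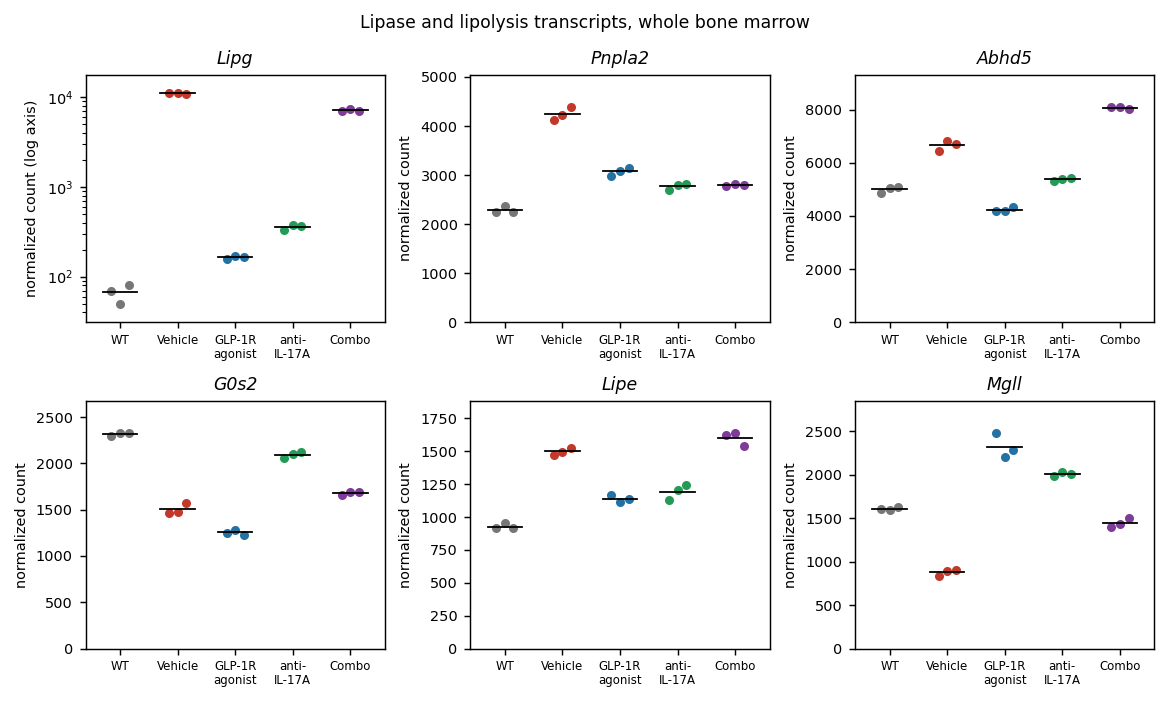
Normalized counts of the 6 genes in BM by recipient group, 1 point per library (3 per group) with the group mean as a line; the Lipg axis is logarithmic and the others start at 0. Lipg is high in Vehicle (10992 to 11198) and in Combo (6988 to 7321), and at most 378 in the other groups.

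Vehicle exceeded WT by a log2 fold change of 7.39 ± 0.0603 (SE), the contrast on which Lipg was chosen. There, 9.44% of all BM genes were called higher and 10% lower, and Lipg was the only member past the fold limit. Against Vehicle, Lipg was lower by a log2 fold change of -6.08 ± 0.0522 with the GLP-1R agonist and -4.95 ± 0.0464 with anti-IL-17A, but by -0.64 ± 0.0341 with Combo, under the fold limit. Relative to WT it remained higher by 1.31 ± 0.108 with the GLP-1R agonist, 2.44 ± 0.0919 with anti-IL-17A and 6.74 ± 0.0616 with Combo. These contrasts share the Vehicle or the WT libraries with the one that selected Lipg.

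The treated groups could be compared with each other without the group means of those libraries. The fit still took its scaling and its estimate of the spread from all 15 BM libraries. Lipg was 43.2-fold higher in Combo than in GLP-1R agonist marrow (log2 fold change 5.43 ± 0.0529, edgeR adjusted p = 7.68e-45). It was 19.8-fold higher in Combo than in anti-IL-17A marrow (4.31 ± 0.0467, edgeR adjusted p = 5.01e-43). The GLP-1R agonist group was 2.18-fold below the anti-IL-17A group (-1.13 ± 0.0746, edgeR adjusted p = 1.63e-16). All 3 differences were called, and Lipg was the only member called in each. Over all genes, 13.2% were called in either direction between Combo and GLP-1R agonist, 5.67% between Combo and anti-IL-17A and 5.83% between the single agents.

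Markers that could bear on BM Lipg were read beside it. The 12 endothelial markers summed to 59.6 to 95.7 CPM over all BM libraries, with 79.1 to 82.1 in Vehicle, 79.3 to 82 in anti-IL-17A, 65.3 to 68 in Combo and 59.6 to 65.4 in GLP-1R agonist marrow. Lipg itself averaged 319 CPM in Vehicle and 204 in Combo. The members of that list split: in Vehicle against WT 4 were called higher and 3 lower, with Cdh5 at a mean of 8.23 against 2.9 CPM and Kdr at 5.39 against 1.45, while Pecam1, the most abundant, was at 40.5 against 56.6. With the GLP-1R agonist and Combo, Cdh5 was at 1.56 and 1.7 CPM and Kdr at 1.05 and 0.579. Against Vehicle, 3 of the list were called higher and 4 lower with the GLP-1R agonist, 4 and 4 with anti-IL-17A, and 1 and 5 with Combo. Shares of all BM genes were 7.60% and 9.08%, 7.65% and 8.46%, and 6.58% and 11.1%. Tek led those higher with the GLP-1R agonist (1.41) and Combo (1.54), and Plvap with anti-IL-17A (1.71). The neutrophil sum, made up mostly of S100a8, S100a9 and Ngp, was 133000 to 134000 CPM in Combo, 119000 to 121000 in Vehicle, 105000 to 112000 in WT, 94100 to 95400 with anti-IL-17A and 78700 to 79400 with the GLP-1R agonist. Single neutrophil markers followed that order only in part. In Vehicle against WT the median log2 fold change of the 9 was -0.35, with 0 called higher and 1 lower (Retnlg, 468 against 3120 CPM). Against Vehicle the median was 1.06 with Combo, in the order of the sum. It was -0.24 with the GLP-1R agonist, also in that order, and 0.73 with anti-IL-17A, against it. The 11 interferon-stimulated genes summed to 5930 to 5980 CPM in Vehicle but to 134 to 136 in Combo, below the 337 to 342 of WT, so the high Lipg count in Combo marrow stood beside a low interferon signature. The part of these cell types in the Lipg count was not tested, and in bulk RNA a smaller number of cells of a type cannot be told apart from less RNA per cell.

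In ATMs, Lipg was high in 1 group only. Its normalized counts were 553, 586 and 598 in WT and 4181, 4742 and 4484 in Vehicle. With the GLP-1R agonist they were 632, 864 and 470, with anti-IL-17A 131, 234 and 185, and with Combo 421, 425 and 341. Vehicle did not overlap any other group, WT and GLP-1R agonist libraries overlapped, and the anti-IL-17A libraries were the lowest. In a given pair of ATM groups, 43.4% to 62.9% of all genes did not overlap.

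**Figure D2:**
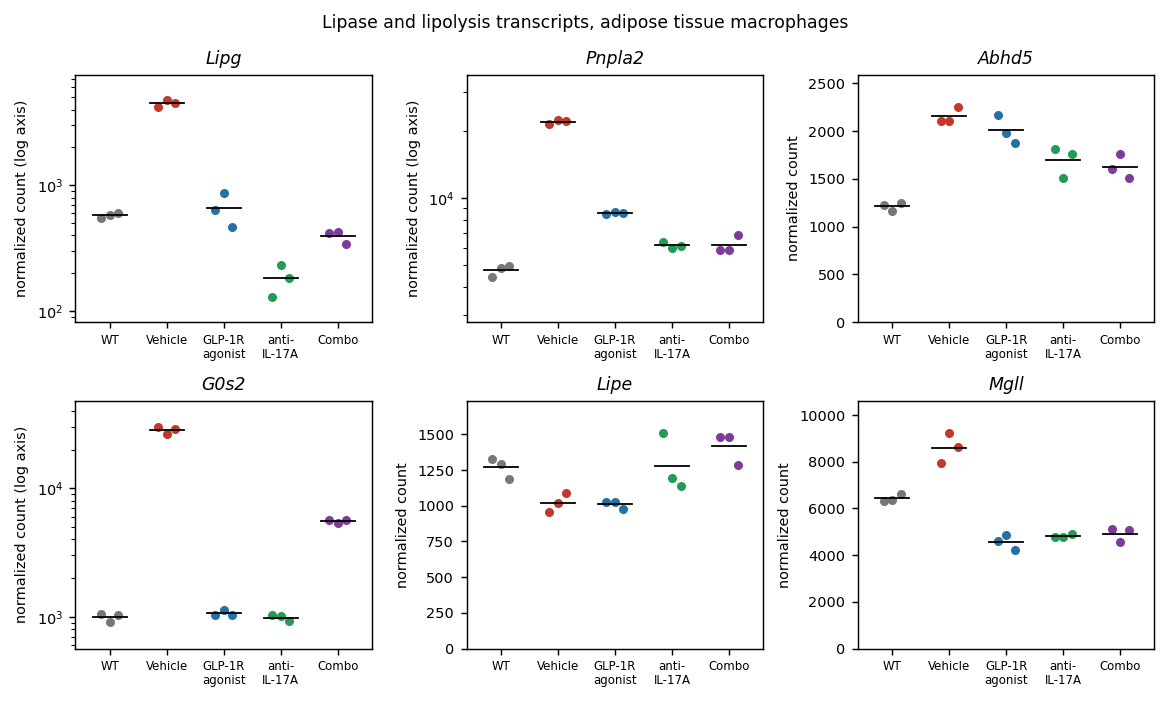
Normalized counts of the 6 genes in ATMs by recipient group, 1 point per library (3 per group) with the group mean as a line; the axes of Lipg, Pnpla2 and G0s2 are logarithmic. Vehicle is highest for these 3 genes, and G0s2 in Combo (5391 to 5689) lies between Vehicle and the rest.

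Lipg rose 7.72-fold in Vehicle ATMs compared with WT (log2 fold change 2.95 ± 0.215, edgeR adjusted p = 1.07e-08). Compared with Vehicle it fell 6.84-fold with the GLP-1R agonist (-2.77 ± 0.214, edgeR adjusted p = 2.3e-08), 24.4-fold with anti-IL-17A (-4.61 ± 0.234, edgeR adjusted p = 1.2e-10) and 11.3-fold with Combo (-3.50 ± 0.221, edgeR adjusted p = 2.16e-09). Combo ATMs differed from WT by -0.55 ± 0.207 (edgeR adjusted p = 0.0454, under the fold limit). GLP-1R agonist ATMs differed from WT by 0.17 ± 0.205 (edgeR adjusted p = 0.554). Anti-IL-17A ATMs fell below WT (-1.66 ± 0.214, edgeR adjusted p = 1.53e-05).

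Among the treated ATMs, Lipg was higher with the GLP-1R agonist than with anti-IL-17A (1.83 ± 0.215, edgeR adjusted p = 8.62e-06). It was also higher in Combo than with anti-IL-17A (1.11 ± 0.213, edgeR adjusted p = 0.000911), but without anti-IL-17A replicate 1 this difference was 0.92 and thus under the fold limit. Combo was below GLP-1R agonist by -0.72 ± 0.207 (edgeR adjusted p = 0.0112), also under the limit. Interferon-stimulated genes in the same libraries summed to 29300 to 30400 CPM in Vehicle, 1240 to 1330 in WT, 1210 to 1240 with the GLP-1R agonist, 965 to 1040 with Combo and 539 to 576 with anti-IL-17A. Endothelial markers were at 4930 to 5080 CPM in Vehicle against 1360 to 1380 in WT and 1030 to 1320 in the treated ATMs. Their part in the Lipg count was not tested.

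Lipg (ENSMUSG00000053846.5) lies on chromosome 18, from 74939322 to 74961263 on the minus strand of GRCm38. Pnpla2 spans 141455198 to 141460743 of chromosome 7 (plus strand), Abhd5 122351608 to 122381524 of chromosome 9 (plus), and G0s2 193272161 to 193273217 of chromosome 1 (minus). Lipe spans 25379527 to 25398710 of chromosome 7 (minus) and Mgll 88724412 to 88828360 of chromosome 6 (plus). All 6 are protein-coding genes, with merged exons from 871 bases (G0s2) to 5956 bases (Abhd5). Lipg, Pnpla2 and G0s2 share no exonic base with another annotated gene. Part of the exons is shared with another gene for Abhd5 (16.0%, A730085K08Rik), Lipe (15.6%, 4732471J01Rik) and Mgll (3.29%, Gm26588), and because counting ignored strand, reads there could belong to either gene.

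The members that act inside the cell come next. G0s2 and Pnpla2, an inhibitor and the lipase it binds, were both called in ATMs, and Mgll was past the fold limit in BM, so the stretches upstream of these genes are shown first.

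These upstream sequences (RefSeq, GRCm38.p6) read 5′ to 3′ on each gene's own strand and stop before the annotated gene, directly before it for G0s2 and Mgll and at the RefSeq start, slightly upstream of it, for Pnpla2. They are G0s2 at chr1:193273218-193273438 (minus), Pnpla2 at chr7:141454938-141455187 (plus) and Mgll at chr6:88724162-88724411 (plus), and capitals mark matches to the 6 motifs searched.
G0s2: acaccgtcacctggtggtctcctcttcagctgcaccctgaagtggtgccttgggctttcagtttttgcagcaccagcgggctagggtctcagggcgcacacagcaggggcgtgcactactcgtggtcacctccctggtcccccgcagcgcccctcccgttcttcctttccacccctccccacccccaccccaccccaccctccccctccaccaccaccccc
Pnpla2: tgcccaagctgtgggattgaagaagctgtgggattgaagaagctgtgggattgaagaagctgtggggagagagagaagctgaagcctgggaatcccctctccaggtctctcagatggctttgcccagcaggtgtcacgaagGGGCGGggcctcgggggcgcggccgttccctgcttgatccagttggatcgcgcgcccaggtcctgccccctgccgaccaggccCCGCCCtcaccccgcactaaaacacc
Mgll: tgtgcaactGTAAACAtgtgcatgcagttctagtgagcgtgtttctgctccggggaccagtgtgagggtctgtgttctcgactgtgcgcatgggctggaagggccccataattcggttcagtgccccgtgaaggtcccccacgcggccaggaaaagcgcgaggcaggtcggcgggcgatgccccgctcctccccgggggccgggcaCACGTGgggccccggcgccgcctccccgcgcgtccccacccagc

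Both strands were searched for 6 motifs: the TATA box (letters TATAAA), the CCAAT box (its name gives its letters), the GC box (letters GGGCGG), the E-box (letters CACGTG), the interferon-stimulated response element and a forkhead element (letters TGTTTAC). The motifs do not overlap in the printed stretches. Pnpla2 held 2 GC boxes, a motif found in 32.7% of all 32851 RefSeq promoter windows cut to the same 250 upstream bases. Mgll held an E-box (6.02% of windows) and a forkhead element (3.17%). The stretch printed for G0s2 held none of the 6 motifs (a GC box 18 bases before the RefSeq start falls inside the annotated gene and is not printed), and neither G0s2 nor Pnpla2 held the response element, which 2.98% of windows contain. A TATA box was in 12.4% and a CCAAT box in 33.8% of windows, with no match in the 3 stretches. These are matches of letters in short windows, and no binding was measured.

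G0s2, the inhibitor, had the largest fold change of the 6 members in ATMs between Vehicle and WT. Its normalized counts were 1058, 906 and 1030 in WT and 29956, 26557 and 28772 in Vehicle. They were 1039, 1138 and 1031 with the GLP-1R agonist, 1027, 1006 and 929 with anti-IL-17A, and 5628, 5391 and 5689 with Combo. Vehicle and Combo each stood apart from all other groups, whereas the libraries of both single agents overlapped those of WT. G0s2 rose 28.5-fold in Vehicle compared with WT (4.83 ± 0.0769, edgeR adjusted p = 8.6e-17). It fell 26.6-fold from Vehicle with the GLP-1R agonist (-4.73 ± 0.0765, edgeR adjusted p = 1.16e-16) and 28.8-fold with anti-IL-17A (-4.85 ± 0.0766, edgeR adjusted p = 6.97e-17). With Combo the fall was 5.1-fold (-2.35 ± 0.068, edgeR adjusted p = 1.47e-13).

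G0s2 in Combo ATMs was above the level with either agent alone. It was 5.21-fold higher than with the GLP-1R agonist (2.38 ± 0.0698, edgeR adjusted p = 5.25e-13), 5.64-fold higher than with anti-IL-17A (2.50 ± 0.0696, edgeR adjusted p = 6.33e-13) and 5.58-fold higher than in WT (2.48 ± 0.0702, edgeR adjusted p = 2.64e-13). The single agents differed from each other by 0.11 ± 0.0685 (edgeR adjusted p = 0.251). The neutrophil sum, over the 9 of 10 markers measured, was high in the same groups as G0s2. It was 462 to 477 CPM in WT, 21900 to 23200 in Vehicle and 12900 to 13200 with Combo. With the GLP-1R agonist it was 247 to 255 and with anti-IL-17A 456 to 463. Single markers split in Combo against Vehicle, with 4 called lower, 1 higher and a median log2 fold change of -0.67. The higher marker was Camp, at a mean of 11350 against 5402 normalized counts. S100a8 alone averaged 58.5 CPM in WT, 9590 in Vehicle and 3670 in Combo. Their part in the G0s2 result was not tested.

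**Figure D3:**
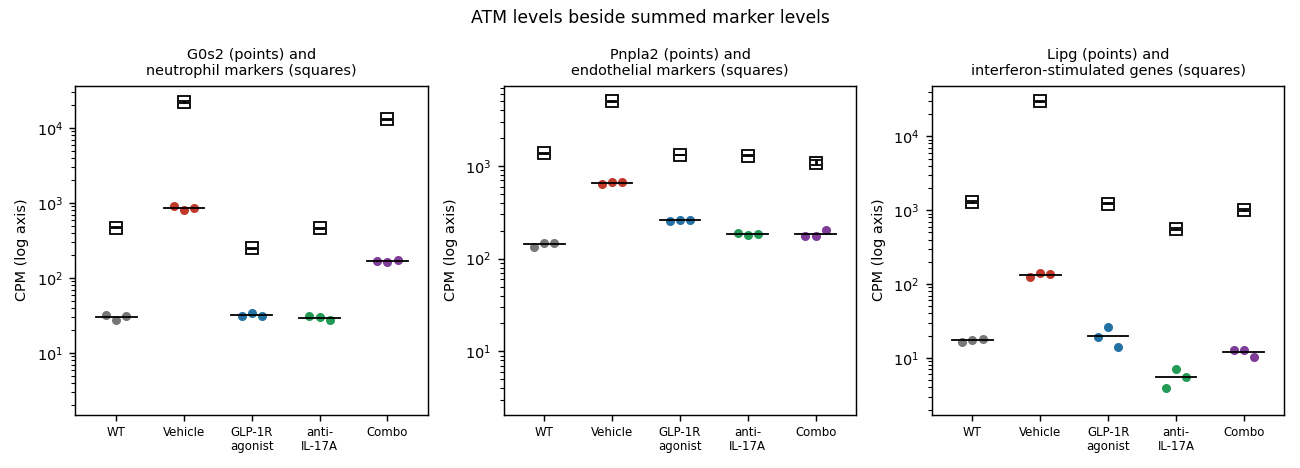
CPM on logarithmic axes of G0s2, Pnpla2 and Lipg in ATMs (points, 1 per library, line at the mean of 3) beside the summed CPM of a marker list (squares, at the middle of the group's range, bars to its lowest and highest library). G0s2 and neutrophil markers are both high in Vehicle and Combo, whereas Pnpla2, Lipg, endothelial markers and interferon-stimulated genes are high in Vehicle only.

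Pnpla2, the lipase that starts droplet triglyceride breakdown, was the second intracellular member called in ATMs. Normalized counts were 4438, 4851 and 4952 in WT and 21456, 22367 and 22243 in Vehicle. With treatment they were 8507, 8645 and 8606 (GLP-1R agonist), 6320, 5995 and 6110 (anti-IL-17A) and 5821, 5825 and 6808 (Combo). Vehicle stood apart, every treated library lay above every WT library, and anti-IL-17A and Combo overlapped each other. Pnpla2 rose 4.64-fold in Vehicle compared with WT (2.21 ± 0.0616, edgeR adjusted p = 6.37e-14). It fell 2.56-fold with the GLP-1R agonist (-1.36 ± 0.0599, edgeR adjusted p = 2.26e-11), 3.59-fold with anti-IL-17A (-1.84 ± 0.0607, edgeR adjusted p = 5.14e-13) and 3.58-fold with Combo (-1.84 ± 0.0607, edgeR adjusted p = 7.08e-13).

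None of the treated groups differed from WT in Pnpla2 past the fold limit, with 0.85 ± 0.0597 for the GLP-1R agonist, 0.37 ± 0.0593 for anti-IL-17A and 0.37 ± 0.0594 for Combo. Combo and anti-IL-17A differed by 0.002 ± 0.0591 (edgeR adjusted p = 0.987). The endothelial sum was likewise highest in Vehicle (4930 to 5080 CPM), with Cldn5 at 1060 CPM against 50 in WT and Cdh5 at 627 against 77.7, while Tek (32.9 against 116) and Vwf (93.4 against 149) were lower there. Their part in the Pnpla2 result was not tested. The adipocyte marker sum was 572 to 635 CPM in Vehicle, 963 to 986 in WT and 1960 to 3790 in the treated ATMs, where Lpl made up most of it. The median log2 fold change of the 10 adipocyte markers was -1.14 in Vehicle against WT. Against Vehicle it was -0.62 with the GLP-1R agonist, -0.40 with anti-IL-17A and 0.47 with Combo. The part of adipocytes in the Pnpla2 result was not tested.

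Abhd5, the co-activator, did not pass the fold limit in any ATM comparison. Its normalized counts ran from 1169 to 1253 in WT, 2101 to 2254 in Vehicle, 1878 to 2165 with the GLP-1R agonist, 1507 to 1812 with anti-IL-17A and 1510 to 1756 with Combo. Vehicle exceeded WT by 0.83 ± 0.0965 (edgeR adjusted p = 2.44e-06), and the 3 treated groups differed from Vehicle by -0.10 ± 0.0954 (GLP-1R agonist), -0.35 ± 0.0954 (anti-IL-17A) and -0.41 ± 0.0956 (Combo). Inhibitor, lipase and co-activator thus all had their highest mean in Vehicle ATMs, although Abhd5 overlapped there with the GLP-1R agonist group, with fold changes over WT that were unequal.

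In Vehicle against WT, 12.5% of all ATM genes were called higher and 22.9% lower, beside 3 members higher (Lipg, Pnpla2 and G0s2) and 0 lower. The same 3 members were called lower in each treated group, where 10.9% of genes were called lower with the GLP-1R agonist, 13.1% with anti-IL-17A and 12.2% with Combo, and 20.8%, 22.4% and 14.1% higher. All 4 comparisons share the Vehicle libraries. Against WT, 0 members were called with the GLP-1R agonist by edgeR or by DESeq2, although 4 passed the false discovery rate alone (as did 35.5% of all genes), 1 with anti-IL-17A (Lipg) and 1 with Combo (G0s2). The shares of all genes called in either direction were 15.1%, 18.7% and 21.6%. Between treated ATMs the members called numbered 1 for Combo against GLP-1R agonist (18.7% of all genes), 2 for Combo against anti-IL-17A (14.2%) and 1 between the single agents (8.10%). The median log2 fold change over all ATM genes was not 0 in every comparison: it was -0.214 for Vehicle against WT, 0.193 and 0.171 for GLP-1R agonist and anti-IL-17A against Vehicle, and -0.118 for Combo against WT.

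**Figure D4:**
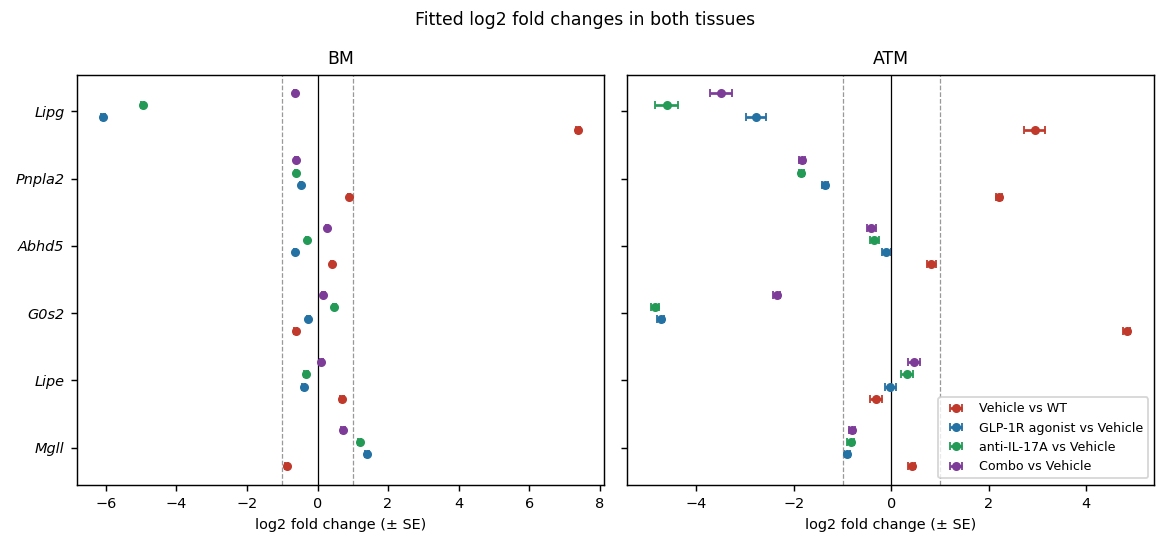
Fitted log2 fold changes with standard errors (3 libraries per group) for the 6 genes in BM and ATMs, with dashed lines at the fold limit of 1 in either direction. In ATMs Lipg, Pnpla2 and G0s2 are past the limit in all 4 comparisons shown, and in BM Lipg has the largest values of the 6 in the comparisons other than Combo against Vehicle.

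For each library, the ratio of inhibitor to lipase transcript was taken from their levels per kilobase of exon (CPM per kb). The libraries held markers of several cell types, so the ratio describes the whole library. Whether both transcripts came from the same cells was not tested. In ATMs the G0s2 to Pnpla2 ratio was 0.826, 0.647 and 0.721 in WT and 4.84, 4.12 and 4.48 in Vehicle. It was 0.424, 0.456 and 0.415 with the GLP-1R agonist, 0.563, 0.582 and 0.527 with anti-IL-17A, and 3.35, 3.21 and 2.9 with Combo. Vehicle and Combo ATMs thus held more inhibitor than lipase transcript per length in every library, and the other 3 groups held less in every library. With 3 libraries against 3, an exact permutation test cannot reach a 2-sided p under 0.1, so no test was made.

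In BM the order of that ratio was different. It averaged 3.50 ± 0.0847 (SD, n = 3) in WT, 1.23 ± 0.0169 in Vehicle, 1.42 ± 0.0543 with the GLP-1R agonist, 2.62 ± 0.0225 with anti-IL-17A and 2.08 ± 0.00422 with Combo. G0s2 transcript exceeded Pnpla2 transcript per length in all 15 BM libraries, WT had the highest ratio and Vehicle the lowest, and no groups overlapped. The Abhd5 to Pnpla2 ratio was 0.13 ± 0.0091 in WT ATMs and 0.0496 ± 0.00178 in Vehicle ATMs, and it was 0.119 to 0.14 on average in the treated ATMs. In BM its group means were between 0.699 and 1.46, lowest with the GLP-1R agonist and highest with Combo.

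**Figure D5:**
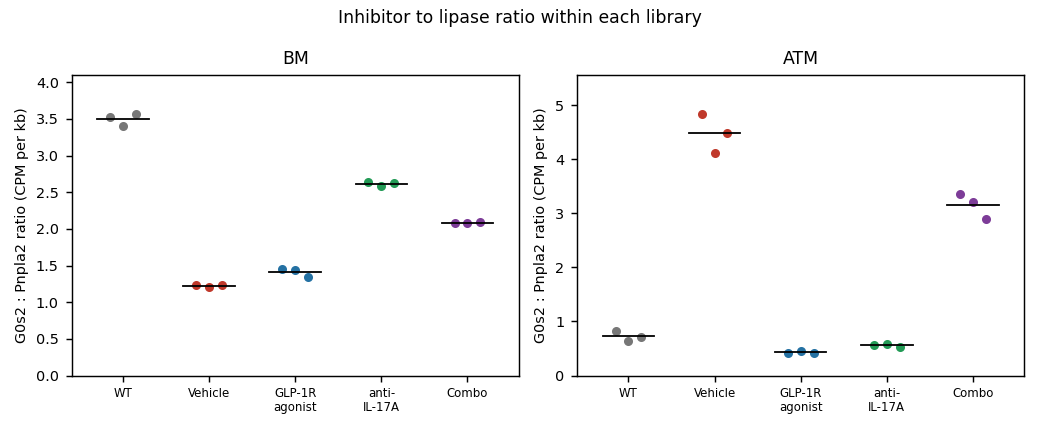
Ratio of G0s2 to Pnpla2 (CPM per kb of exon) within each of 3 libraries per group, on linear axes from 0, with group means as lines. In ATMs the ratio is above 1 in Vehicle and Combo only, and in BM it is above 1 in all groups and lowest in Vehicle.

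In BM, Pnpla2 normalized counts ran from 2253 to 2366 in WT, 4123 to 4391 in Vehicle, 2989 to 3151 with the GLP-1R agonist, 2702 to 2810 with anti-IL-17A and 2773 to 2824 with Combo. G0s2, which was highest of the 5 ATM groups in Vehicle, ran from 1461 to 1574 in Vehicle marrow, below the 2292 to 2326 of WT. It was 1229 to 1283 with the GLP-1R agonist, 2055 to 2120 with anti-IL-17A and 1663 to 1692 with Combo. Abhd5 was highest with Combo (8035 to 8101), followed by Vehicle (6440 to 6819) and anti-IL-17A (5330 to 5433), and lowest with the GLP-1R agonist (4173 to 4346). Its difference between Combo and GLP-1R agonist, 0.93 ± 0.0282 (edgeR adjusted p = 2.77e-28), came close to the fold limit without passing it.

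Mgll, the last enzyme of the cascade, was the other member past the fold limit in BM. Its normalized counts were 1604, 1589 and 1630 in WT and 837, 886 and 903 in Vehicle. They were 2476, 2206 and 2278 with the GLP-1R agonist, 1982, 2028 and 2004 with anti-IL-17A, and 1394, 1431 and 1505 with Combo. Vehicle was the lowest group, both single agents lay above WT, Combo lay between Vehicle and WT, and no groups overlapped. Lack of overlap was common, at 61% to 76% of all genes in a given pair of BM groups. Against Vehicle, Mgll was higher by 1.41 ± 0.0483 with the GLP-1R agonist and 1.20 ± 0.0488 with anti-IL-17A, both past the fold limit, and by 0.72 ± 0.0505 with Combo, under the fold limit. Combo was below the GLP-1R agonist group by -0.68 ± 0.0451 (edgeR adjusted p = 6.29e-17) and below the anti-IL-17A group by -0.47 ± 0.0455 (edgeR adjusted p = 1.18e-11).

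Mgll in ATMs ran the other way. Vehicle held the highest counts (7934, 9226 and 8617) and WT the next (6318, 6372 and 6625). The GLP-1R agonist (4221 to 4868), anti-IL-17A (4758 to 4915) and Combo (4564 to 5105) libraries overlapped one another below both. Differences from Vehicle were -0.91 ± 0.0674, -0.83 ± 0.0671 and -0.81 ± 0.0672, in that order, all under the fold limit. Lipe, hormone-sensitive lipase, had the narrowest range in ATMs, from 960 in the lowest Vehicle library to 1509 in the highest anti-IL-17A library. Its Vehicle to WT difference was -0.31 ± 0.119 in ATMs (edgeR adjusted p = 0.0341) and, as a description, 0.69 ± 0.0495 in BM. In BM, Lipe was highest with Combo (1542 to 1638) and Vehicle (1475 to 1526), which did not overlap but differed by 0.09 ± 0.0473, and lowest in WT (915 to 952).

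Against Vehicle in BM, Lipg (lower) and Mgll (higher) were past the fold limit with the GLP-1R agonist and with anti-IL-17A, 2 members in each, and 0 members were with Combo. The shares of all BM genes called lower were 9.08%, 8.46% and 11.1% in those comparisons, and the shares called higher were 7.60%, 7.65% and 6.58%. Against WT, Lipg was the member past the fold limit in each treated group, where 14.7% (GLP-1R agonist), 6.32% (anti-IL-17A) and 14.3% (Combo) of all genes were called. These contrasts reuse the Vehicle or WT libraries on which Lipg was selected, so the members' values there are a description and nothing is read from the counts.

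Whether both agents added up was examined by taking Combo minus both single-agent effects on the log2 scale, where 0 means additive. In ATMs the departure was 7.23 ± 0.103 for G0s2 (edgeR adjusted p = 3.22e-17), 3.89 ± 0.3 for Lipg (edgeR adjusted p = 2.54e-08) and 1.36 ± 0.0838 for Pnpla2 (edgeR adjusted p = 1.6e-09), all called. It was 0.94 ± 0.0947 for Mgll, 0.16 ± 0.167 for Lipe and 0.04 ± 0.135 for Abhd5. Over all genes, 35.9% of ATM genes and 21.1% of BM genes were called for a departure. In BM it was 10.38 ± 0.0702 for Lipg, 1.24 ± 0.0397 for Abhd5 and -1.88 ± 0.0664 for Mgll, all past the fold limit, and 0.82 ± 0.0677 for Lipe, 0.48 ± 0.0494 for Pnpla2 and -0.06 ± 0.0591 for G0s2. A departure of this kind includes the case in which each single agent alone already brings a gene back to the WT level, as both did for G0s2 in ATMs. Combo left G0s2 above the GLP-1R agonist group by 2.38 and above the anti-IL-17A group by 2.50, which also enters its departure.

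The treatment effects on several members differed between the tissues. Taking the ATM log2 fold change minus the BM one, 3 members passed the fold limit with the GLP-1R agonist, 3 with anti-IL-17A and 4 with Combo, while 26.6%, 29.3% and 28.1% of the 13076 genes in both tables were called. G0s2 and Mgll were among them in all 3 comparisons, with lower values in ATMs. For Lipg the difference was 3.29 ± 0.225 with the GLP-1R agonist, 0.32 ± 0.221 with anti-IL-17A and -2.81 ± 0.21 with Combo. Tissue and cell preparation cannot be told apart here, and because the BM Vehicle libraries entered the choice of members, no p value is given. The fit over both tissues took all 30 libraries as independent. Its standard errors thus take no account of BM and ATM libraries that may come from the same mouse.

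Per length, the members ranked differently in the tissues. In WT BM, G0s2 led with 76.3 ± 0.637 CPM per kb, followed by Abhd5 (24.1 ± 0.591) and Pnpla2 (21.8 ± 0.612), with Mgll (9.09 ± 0.117), Lipe (4.53 ± 0.103) and Lipg (0.405 ± 0.096) below (SD, n = 3). In Vehicle BM, Lipg had the highest level of the 6 at 67.7 ± 0.67 CPM per kb, above G0s2 at 49.6 ± 2.03. In WT ATMs, Pnpla2 led with 47.4 ± 2.72, then Mgll (38.2 ± 0.968) and G0s2 (34.5 ± 2.8), with no overlap between these 3, and Lipg was lowest with 3.7 ± 0.151. In Vehicle ATMs, G0s2 led with 984 ± 59.7 CPM per kb and Pnpla2 followed with 220 ± 4.94.

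The genes whose levels followed each member most closely were sought as a description over the 15 libraries of a tissue, which share only 5 group means. For Lipg in BM these were Alas1 (Pearson r = 0.994), Qsox1 (0.993), Jak3 (0.990), Pdk3 (0.990) and Lcn2 (0.989), among 13196 genes. In ATMs they were Pde4b (0.983), Pdlim7 (0.982), Sdc4 (0.982), Ifit1 (0.980) and Cxcl10 (0.979), among 16583 genes, so no gene was on both lists. Ifit1 and Cxcl10 are interferon-stimulated genes. For G0s2 the closest ATM genes were Irg1 (0.996), which encodes the enzyme that makes itaconate, and the cytokine gene Osm (0.995), and for Pnpla2 they were the endothelial junction gene Cldn5 (0.997) and Sat1 (0.994). In BM the closest were Cd93 (0.985) and Sept6 (0.973) for G0s2 and Bhlhe40 (0.991) and Brd2 (0.989) for Pnpla2. Mgll followed Slc14a1 (0.989) and the erythroid regulator Tal1 (0.985) in BM and Iigp1 (0.981) and S100a16 (0.978) in ATMs. Abhd5 followed Anxa2 (0.994) and Tpm3 (0.992) in BM and Gzmb (0.960) and Atp1b3 (0.953) in ATMs. Lipe followed Stat3 (0.987) and Myd88 (0.986) in BM, and in ATMs Nol7 (0.899) and Sae1 (0.891).

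Secreted lipases and their regulators, which include the endothelial docking protein Gpihbp1, gave mixed calls around Lipg. In Vehicle compared with WT, 12.5% of all ATM genes were called higher and 22.9% lower. In ATMs, 16 of 20 listed genes were measured, and 5 were called higher and 3 lower in that comparison (median log2 fold change 0.03, against -0.214 over all genes). Gpihbp1 rose most (3.09 ± 0.0727, edgeR adjusted p = 7.91e-15), from a mean of 2420 to 20650 normalized counts. In this and the following lists, genes were named by the size of the same change, so their p values are a description. Lpl, lipoprotein lipase, rose with the GLP-1R agonist (2.59 ± 0.0545, edgeR adjusted p = 2.72e-15) and with anti-IL-17A (3.54 ± 0.0567, edgeR adjusted p = 8.51e-17). Lpl therefore moved opposite to Lipg in these comparisons. The list held 4 higher and 4 lower with the GLP-1R agonist, 3 and 5 with anti-IL-17A, and 3 and 4 with Combo. The shares of all ATM genes were 20.8% and 10.9%, 22.4% and 13.1%, and 14.1% and 12.2%, in the same order. Pnliprp2, a pancreatic lipase, was at 0 in Vehicle ATMs and at a mean of 391 normalized counts in Combo ATMs, the group with pancreatic acinar markers. In BM, 13 of 20 were measured, of which 1 was called higher (Lipg) and 3 lower in Vehicle against WT, with Liph at a mean of 2.273 normalized counts in Vehicle and 21.99 in WT. Against Vehicle, BM had 2 higher and 2 lower with the GLP-1R agonist, 3 and 2 with anti-IL-17A, and 2 and 0 with Combo. Of all BM genes, 9.44% were called higher and 10% lower in Vehicle against WT. With treatment these shares were 7.60% and 9.08%, 7.65% and 8.46%, and 6.58% and 11.1%, in the same order. The BM medians were 0.27, 0.21, 0.11 and 0.05, against -0.017, 0.01, 0.007 and 0.021 over all BM genes, for Vehicle against WT and then the treatments in the same order.

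The counts of other intracellular hydrolases had the direction of all ATM genes, of which 12.5% were called higher and 22.9% lower in Vehicle against WT, and 20.8% and 10.9% with the GLP-1R agonist, 22.4% and 13.1% with anti-IL-17A and 14.1% and 12.2% with Combo against Vehicle. All-gene medians were -0.214, 0.193, 0.171 and 0 in these comparisons. All 16 listed were measured in ATMs: 0 were called higher and 5 lower in Vehicle against WT (median -1.16), led by the carboxylesterase Ces1d (-2.97 ± 0.193, edgeR adjusted p = 2.43e-09). With the GLP-1R agonist 8 rose and 1 fell (median 1.41), with anti-IL-17A 7 rose and 1 fell (median 1.29), and with Combo 6 rose and 1 fell (median 0.62). Lipa, the lysosomal acid lipase, rose with the GLP-1R agonist (2.53 ± 0.0544, edgeR adjusted p = 3.4e-15) and with Combo (2.38 ± 0.0541, edgeR adjusted p = 8.78e-15). Aadac rose most with anti-IL-17A (4.95 ± 1.5, edgeR adjusted p = 0.012), from 2.45 to 78.8 normalized counts. The gene that fell in each was Abhd6, at -1.33 ± 0.26, -1.58 ± 0.261 and -1.38 ± 0.26, respectively. The macrophage marker sum was also lowest in Vehicle ATMs and highest with treatment, and its part in these counts was not tested. The shares of all BM genes called higher and lower were 9.44% and 10% in Vehicle against WT. With treatment they were 7.60% and 9.08%, 7.65% and 8.46%, and 6.58% and 11.1%, in the same order. In BM, 12 of the 16 hydrolases were measured: 0 higher and 1 lower in Vehicle against WT (Ces1d, -3.53 ± 0.154), then 1 and 1, 1 and 0, and 2 and 2 with the GLP-1R agonist, anti-IL-17A and Combo. Ces1d led the BM genes higher than Vehicle in all 3 (2.65, 2.64 and 2.20), and Faah was lowest in Combo (-1.49 ± 0.147) and Abhd6 with the GLP-1R agonist (-1.19 ± 0.275).

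Lipid droplet proteins gave the substrate side of the pathway. In ATMs, 14 of 15 were measured, and 4 were called higher and 3 lower in Vehicle against WT. Plin2, the main droplet coat protein outside adipocytes, rose from a mean of 15090 to 112700 normalized counts (2.90 ± 0.0255, edgeR adjusted p = 1.59e-19), and Acsl1 fell (-1.62 ± 0.112, edgeR adjusted p = 5.13e-09). With treatment the shares of all ATM genes called higher and lower were 20.8% and 10.9%, 22.4% and 13.1%, and 14.1% and 12.2%. Against Vehicle, 2 droplet genes were higher and 2 lower with the GLP-1R agonist, 2 and 2 with anti-IL-17A, and 1 and 3 with Combo. Fabp4 fell most with anti-IL-17A (-1.87 ± 0.0313, edgeR adjusted p = 1.1e-16), Plin5 fell most with the GLP-1R agonist (-2.91 ± 1.1, edgeR adjusted p = 0.0368) and with Combo (-2.91 ± 1.1, edgeR adjusted p = 0.0396), and Bscl2 rose with Combo (1.32 ± 0.0791, edgeR adjusted p = 9.95e-10). Mean normalized counts of Plin5 were 155.2 in Vehicle, 20.85 with the GLP-1R agonist and 20.58 with Combo. Fitm1 rose most with the GLP-1R agonist (3.75 ± 1.46, edgeR adjusted p = 0.0413) and with anti-IL-17A (4.23 ± 1.48, edgeR adjusted p = 0.0233), at means of 34.4 and 48.3 normalized counts. Its mean in Vehicle was near 0, at 2.495 ± 4.32 (SD) normalized counts. The shares of all ATM genes in Vehicle against WT were 12.5% higher and 22.9% lower. In BM, 12 of 15 were measured and 5 were called higher and 1 lower in Vehicle against WT, beside 9.44% and 10% of all BM genes. With treatment the shares of all BM genes called higher and lower were 7.60% and 9.08% (GLP-1R agonist), 7.65% and 8.46% (anti-IL-17A) and 6.58% and 11.1% (Combo). Hilpda, a droplet protein that also inhibits adipose triglyceride lipase, led (2.46 ± 0.0901) and Fabp4 was lower (-1.90 ± 0.0922). Hilpda was lower in all treated marrow, at -2.36 ± 0.0889, -2.88 ± 0.0935 and -3.03 ± 0.0967, including Combo, in which Lipg stayed high. BM called 2 higher (led by Fabp4, 2.25 ± 0.0903) and 3 lower with the GLP-1R agonist, 0 and 3 with anti-IL-17A, and 0 and 2 with Combo. Medians over the 4 comparisons were -0.27, -0.50, -0.48 and -0.15 in ATMs and 0.50, -0.37, 0.05 and -0.15 in BM.

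Hormonal control of lipolysis and triglyceride synthesis were the last groups. In ATMs all 24 control genes were measured, and 5 were called higher and 5 lower in Vehicle against WT, where 12.5% of all genes were called higher and 22.9% lower. The niacin receptor gene Hcar2, an inhibitor of lipolysis in adipocytes, rose (3.31 ± 0.172, edgeR adjusted p = 1.55e-10), and Adora1 fell (-3.33 ± 0.749, edgeR adjusted p = 0.00141). Hcar2 fell with the GLP-1R agonist (-4.40 ± 0.183, edgeR adjusted p = 1.04e-11) and with anti-IL-17A (-4.06 ± 0.178, edgeR adjusted p = 1.87e-11), while Prkar2a rose (1.94 ± 0.2 and 2.34 ± 0.201). With Combo, Pde4b fell most (-1.48 ± 0.0467, edgeR adjusted p = 3.75e-13) and Irs1 rose most (1.98 ± 0.731, edgeR adjusted p = 0.0353). Irs1 was at 70.13 ± 60.8 (SD) normalized counts in Vehicle and 276.1 ± 81.7 in Combo. Counts were 3 higher and 3 lower with the GLP-1R agonist, 4 and 4 with anti-IL-17A, and 3 and 3 with Combo. All ATM genes gave shares of 20.8% and 10.9%, 22.4% and 13.1%, and 14.1% and 12.2%, in the same order. In BM, 20 of 24 were measured, with 1 higher (Pde4d, 2.18 ± 0.0595) and 1 lower (Pde3a, -1.98 ± 0.696) in Vehicle against WT. Against Vehicle they numbered 1 higher (Pde3a, 2.29 ± 0.667) and 4 lower (led by Hcar2, -2.16 ± 0.0698) with the GLP-1R agonist, 0 and 1 (Pde4d, -1.71 ± 0.0567) with anti-IL-17A, and 1 (Prkar2a, 1.03 ± 0.0511) and 5 (led by Pde4d, -1.57 ± 0.0567) with Combo. Pde3a was low in BM, at mean normalized counts of 3.493 in Vehicle, 13.73 in WT and 17.09 with the GLP-1R agonist. Of all BM genes, 9.44% were called higher and 10% lower in Vehicle against WT. With treatment these shares were 7.60% and 9.08%, 7.65% and 8.46%, and 6.58% and 11.1%, in the same order. Medians of the control genes were -0.51, 0.03, -0.11 and -0.02 in ATMs and 0.06, 0.03, 0.23 and 0.09 in BM.

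Of 13 genes of triglyceride synthesis, 10 were measured in ATMs, and 3 were called higher and 1 lower in Vehicle against WT, beside the same 12.5% and 22.9% of all genes. Lpin3, a phosphatidate phosphatase gene, rose (4.16 ± 0.28, edgeR adjusted p = 3.85e-09), and Gpam, which encodes the acyltransferase of the first step, fell (-2.20 ± 0.223, edgeR adjusted p = 5.07e-07). Lpin3 fell in all treated ATMs (-3.03 ± 0.264, -3.99 ± 0.276 and -3.27 ± 0.266), and Lpin1 rose with the GLP-1R agonist (1.79 ± 0.104) and with anti-IL-17A (1.95 ± 0.104), as Gpam did with Combo (1.11 ± 0.218). With treatment the shares of all ATM genes called higher and lower were 20.8% and 10.9%, 22.4% and 13.1%, and 14.1% and 12.2%. Counts of the synthesis genes higher and lower were 2 and 1, 1 and 2, and 1 and 1 in that order of treatments. Their medians over the 4 comparisons were 0.34, -0.20, -0.31 and -0.04. In BM, 9 were measured, with 1 higher and 2 lower in Vehicle against WT. Dgat2, which adds the last acyl chain, was higher there (1.19 ± 0.0388) and Gpam lower (-1.11 ± 0.0741). With the GLP-1R agonist 1 was called higher (Lpin1, 1.14 ± 0.0957) and 2 lower (led by Dgat2, -1.71 ± 0.0402), and 0 of the 9 were called with anti-IL-17A or with Combo. Of all BM genes, 9.44% were called higher and 10% lower in Vehicle against WT. With treatment these shares were 7.60% and 9.08%, 7.65% and 8.46%, and 6.58% and 11.1%, in the same order. Medians of the synthesis genes in BM were 0.11, -0.01, -0.17 and 0.06.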

How the data were processed

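RNA-seq was done on 30 libraries, 3 mice in each of 5 groups for BM and for ATMs. Per the labels and methods, the authors sequenced poly(A) RNA in pairs, aligned reads to mm10 with STAR 2.7.2a and counted fragments per GENCODE M22 gene with featureCounts 2.0.1 without regard to strand. They deposited raw counts, 1 table per tissue, and the unit used here is these counts. The smallest gene total was 55 in BM and 54 in ATMs, and any filter before deposit is not given in the sources used here. Columns of other samples numbered 0.

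Each tissue was fitted by itself in R 4.3.3 with the quasi-likelihood test of edgeR 4.0.16 (TMM scaling, filterByExpr, which removed 0 genes, robust dispersion), with 5 groups and Benjamini-Hochberg adjustment over all genes. The tests were tested on simulated data. Normalized counts are counts divided by effective library size and multiplied by the tissue mean of that size. Alternatives were DESeq2 1.42.0, its size factors in edgeR, a minimum of 10 counts in every library, no filter, no fold limit, only the compared groups, a replicate block and leaving out each library. Positions and exon lengths came from GENCODE M21, another release on the same build, and upstream sequences from RefSeq.

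The members, pathway lists (extracellular lipases, intracellular hydrolases, droplet proteins, hormonal control, triglyceride synthesis) and marker lists were chosen with earlier results of these data known. Named genes were all members, the called gene of largest change in each direction per pathway list (mean of at least 10 counts), and the 5 genes most like Lipg and 2 most like each other member by Pearson r of log2 CPM (prior count 2). Genes named from the pathway lists were picked on the same values that gave their p values, which are thus no independent test. Marker genes of cell types named individually were chosen after their values were seen. P values measure the spread between these libraries, each labelled as a separate mouse.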

Additional observations from a re-analysis of the deposited data

Results flagged for a closer look

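Effects of the same treatment that differed between ATMs and BM are given here as the ATM log2 fold change minus the BM one, from 1 edgeR fit over both tissues. That fit held no term for mouse. The difference passed the fold limit for these genes, and no cause was tested. With the GLP-1R agonist against Vehicle it was 3.29 for Lipg, -4.48 for G0s2 and -2.32 for Mgll. With anti-IL-17A against Vehicle it was -1.25 for Pnpla2, -5.35 for G0s2 and -2.06 for Mgll. With Combo against Vehicle it was -2.81 for Lipg, -1.20 for Pnpla2, -2.47 for G0s2 and -1.49 for Mgll. These comparisons share the Vehicle libraries of each tissue.

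For Vehicle against WT, 3 members differed in opposite directions in the tissues, with no overlap between the groups in either. Over all genes, Vehicle and WT did not overlap for 75.8% in BM and 62.9% in ATMs. The ATM minus BM difference was 5.46 for G0s2, -1.01 for Lipe and 1.29 for Mgll, and the difference was not tested.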

How the results depend on the processing

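Of 1602 values of the members recomputed under alternatives, 1528 kept direction and call, 0 reversed as calls, 1 lost its call and 73 gained one, all of the latter without the fold limit. Without that limit the members called in BM numbered 6 for Vehicle against WT, for each single agent against Vehicle, for each treatment against WT and for Combo against GLP-1R agonist, and 5 for Combo against Vehicle, Combo against anti-IL-17A and GLP-1R agonist against anti-IL-17A. In ATMs they numbered 6 for Vehicle against WT and for anti-IL-17A and Combo against Vehicle, 5 for Combo against WT and against GLP-1R agonist, 4 for each single agent against WT, and 3 between the single agents. Of all genes, 52.5% to 76.6% passed the false discovery rate alone over the 10 BM comparisons and 28.6% to 58.1% over the 10 in ATMs, and nothing is read from these counts. Leaving out 1 library each gave 1 to 2 members for Combo against anti-IL-17A in ATMs, with 1 (G0s2, Lipg being lost) without anti-IL-17A replicate 1, by the smaller fold change. With a replicate block the counts stayed, for example 3 for Vehicle against WT in ATMs and 3 for the BM departure. Same-numbered libraries correlated between -0.0295 and 0.0523 after removing group means, so the numbers did not pair the samples. Uncalled values near 0 changed sign under some alternatives (in ATMs G0s2 and Lipe with anti-IL-17A against WT, Lipe with the GLP-1R agonist against Vehicle, Lipg with the GLP-1R agonist against WT, and in both tissues Pnpla2 for Combo against anti-IL-17A), so no direction is read from their signs. With 3 libraries a group, and with the wider spread in ATMs, the members' differences there carried larger standard errors than in BM. Whether the small BM spread covers the variation between mice was not tested, so small BM differences are not read as more certain.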
